A study of Rattus norvegicus with 8 samples.

Results

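The 46 genes of this report encode extracellular matrix proteins and proteins that fold, modify and cross-link collagen. They were listed by name, with earlier results of these data known, so their counts beside all genes are descriptive. Of the 46, 43 had a row under that symbol in the table of expression values. *Hspg2*, *Fbln5* and *Thbs1* had none. The listed genes fall into 7 groups by role. Measured were 7 fibrillar collagens, 4 other collagens, 8 basement membrane proteins and 5 small proteoglycans. The other groups had 6 elastic fiber and microfibril proteins, 6 adhesive and matricellular proteins and 7 collagen-modifying proteins measured.

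Granulosa cells (GCs), the follicle cells that surround the oocyte, were collected from ovaries of immature female Sprague-Dawley rats aged 24 days and placed in primary culture with testosterone. One set carried an EGFP lentivirus, which makes a fluorescent marker protein, and was given FSH at 100 ng/ml (the FSH group, 3 arrays). A second set carried a lentivirus for PKA-CQR, a mutant of the PKA catalytic subunit that is active without cAMP (the PKA-CQR group, 3 arrays). The EGFP group (2 arrays) received the EGFP lentivirus alone. Testosterone and a lentivirus were thus present in every culture, and PKA-CQR cultures carried another virus than FSH cultures. RNA was taken after 24 h in every group. The paper describes FSH signaling as fast and short-lived, and expects PKA-CQR activity to build up as the viral protein is made. FSH and PKA-CQR arrays therefore differ in the time course of the stimulus as well as in its kind. RNA was hybridized to Affymetrix Rat230_2 arrays, and the signals are log2 RMA values. The comparisons ask what FSH does to these transcripts, how much of it active PKA does alone, and whether both stimuli differ.

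The matrix of a growing follicle lies in the basement membrane around the GCs, between the GCs themselves and in the theca outside. Fibrillar collagens form rope-like fibers after their propeptides are removed, small leucine-rich proteoglycans coat and space those fibers, and lysyl oxidases cross-link collagen and elastin. Laminins and type IV collagen each build a sheet in the basement membrane, and nidogen bridges the sheets. Fibronectin, osteopontin and tenascin connect matrix to integrins on the cell surface. FSH signals through cAMP and PKA in GCs.

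With FSH, 18 of the 43 matrix genes fell and 3 rose against EGFP (limma adjusted p below 0.05, n = 3 and 2 arrays). Over all 13915 genes with a symbol, 12.1% fell and 13.4% rose in the same fit. With PKA-CQR, 10 matrix genes fell and 2 rose (n = 3 and 2 arrays), where 6.02% of all genes fell and 6.48% rose. In the direct comparison, FSH arrays were below PKA-CQR arrays for 12 matrix genes and above them for 1 (n = 3 arrays each), where 3.95% of all genes were below and 2.96% above. In either direction the shares of all genes called were 25.5% with FSH, 12.5% with PKA-CQR and 6.91% between the stimuli. The median log2 fold change of the matrix genes was -0.25 with FSH, -0.14 with PKA-CQR and -0.16 for FSH over PKA-CQR, and the medians of all genes were 0.06, 0.03 and 0.02. Among the matrix genes called, 11 fell at least 2-fold with FSH and 7 with PKA-CQR. The share of all genes past that fold was not counted, so these 2 counts have no baseline. The comparisons of each stimulus with EGFP share the EGFP arrays. In cultures measured whole, fewer cells of a type and less RNA per cell cannot be told apart.

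**Figure D1:**
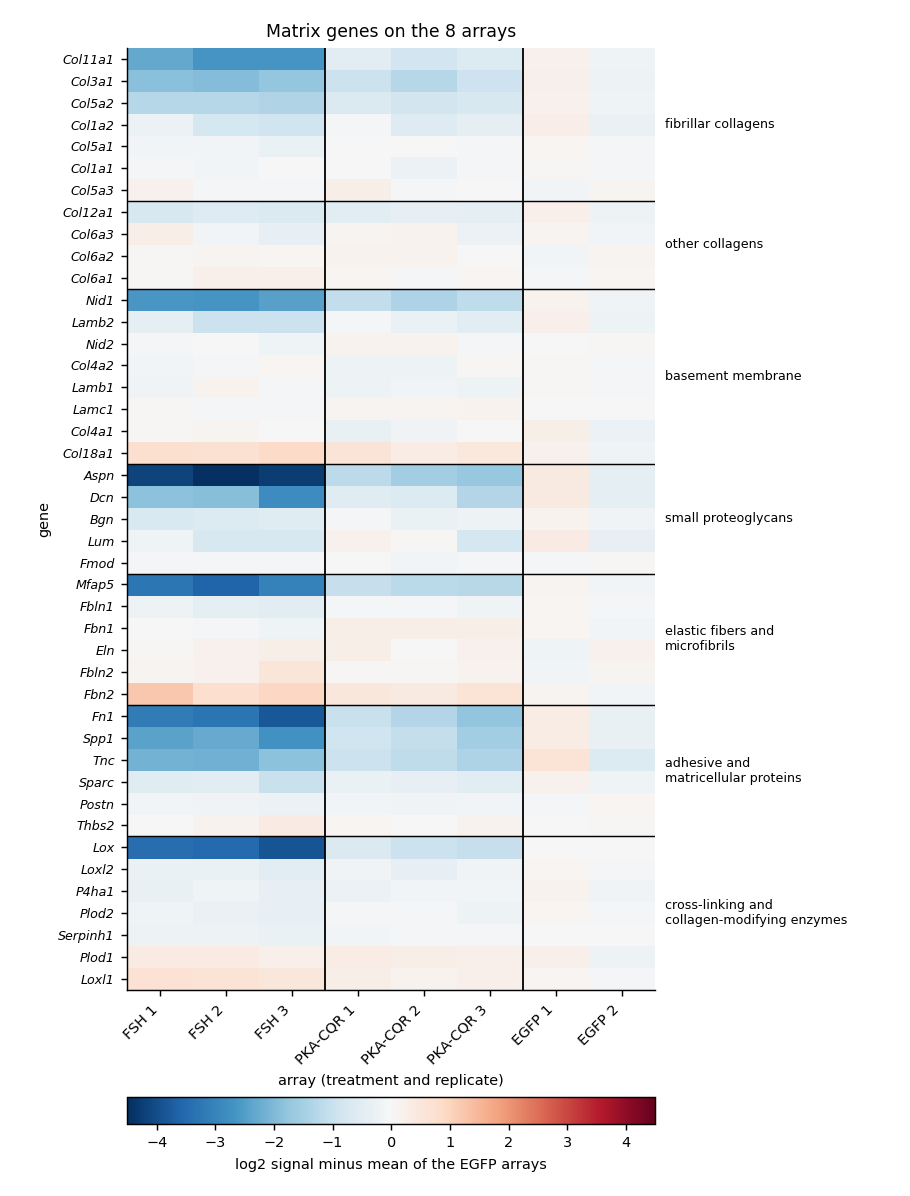
Log2 signal of the 43 matrix genes (rows, by role and, within a role, by the change with FSH) on the 8 arrays (columns), less the mean of the EGFP arrays; blue is below that mean and red above it. The deepest blue lies in the FSH columns, where *Aspn*, *Lox*, *Fn1* and *Mfap5* were at least 9.83-fold lower than in EGFP arrays, and *Fbn2*, *Col18a1* and *Loxl1* are red there.

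The EGFP arrays differed from each other in these genes. EGFP replicate 1 was above replicate 2 in 34 of the 43 matrix genes, in all 18 that fell with FSH (median difference 0.40 log2) and in all 3 that rose, against 47.6% of all genes. Without EGFP replicate 1, 13 matrix genes fell and 4 rose with FSH, and 4 fell and 2 rose with PKA-CQR. Leaving out any 1 of the 8 arrays kept 16 of the 21 calls with FSH, 4 of the 12 with PKA-CQR and 7 of the 13 in the direct comparison. Shares of all genes were not counted for the fits with an array left out, so the counts from those fits have no baseline. Array medians were between 8.37 and 8.44 log2, and arrays of 1 group correlated at 0.993 to 0.997.

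Of the 7 fibrillar collagens, *Col11a1*, *Col3a1* and *Col5a2* were lower with both stimuli, and *Col1a1*, *Col1a2*, *Col5a1* and *Col5a3* were not called in any comparison. The 3 that fell are 42.9%, beside 12.1% of all genes with FSH and 6.02% with PKA-CQR. *Col11a1*, a chain of the minor type XI collagen that sets fiber diameter, had log2 signals of 11.07, 10.70 and 10.71 in FSH arrays, 12.86, 12.52 and 12.75 in PKA-CQR arrays, and 13.58 and 13.17 in EGFP arrays. All 3 groups stood apart without overlap, and PKA-CQR arrays lay much nearer EGFP than FSH. *Col11a1* was 5.83-fold lower with FSH than EGFP (log2 change -2.54 with an SE of 0.16, adjusted p = 1.35e-05) and 3.69-fold lower with FSH than with PKA-CQR (adjusted p = 0.000348). The 1.58-fold fall of *Col11a1* with PKA-CQR (adjusted p = 0.0318) was lost without EGFP replicate 1, PKA-CQR replicate 2 or PKA-CQR replicate 3 (adjusted p up to 0.238).

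*Col3a1* and *Col5a2* lie next to each other among the protein-coding genes of the rat genome. *Col3a1*, the type III collagen of pliable tissues, had log2 signals of 8.45, 8.38 and 8.59 in FSH arrays, 9.38, 9.04 and 9.41 in PKA-CQR arrays, and 10.57 and 10.10 in EGFP arrays. *Col5a2*, a chain of the type V collagen that starts fiber assembly, had 11.63, 11.63 and 11.55 in FSH arrays, 12.27, 12.08 and 12.17 in PKA-CQR arrays, and 13.10 and 12.71 in EGFP arrays. In both genes the PKA-CQR arrays sat between the other groups, with no overlap. With FSH, *Col3a1* fell 3.64-fold (log2 change -1.86 with an SE of 0.16, adjusted p = 5.8e-05) and *Col5a2* fell 2.47-fold (log2 change -1.30 with an SE of 0.12, adjusted p = 7.77e-05). With PKA-CQR they fell 2.09-fold (adjusted p = 0.00313) and 1.66-fold (adjusted p = 0.00429). The calls for FSH below PKA-CQR (adjusted p = 0.0116 for *Col3a1* and 0.0142 for *Col5a2*) were each lost without PKA-CQR replicate 1 or 3, and that of *Col3a1* also without FSH replicate 2 (adjusted p up to 0.062 and 0.0712).

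The chains of type I collagen, the main collagen of connective tissue, gave no call with all 8 arrays. *Col1a1* had log2 fold changes of -0.07 with FSH (95% interval -0.28 to 0.15) and -0.12 with PKA-CQR (-0.33 to 0.09). *Col1a2* had log2 signals of 8.33, 7.81 and 7.68 in FSH arrays, 8.52, 8.01 and 8.14 in PKA-CQR arrays, and 8.89 and 8.29 in EGFP arrays, so replicate 1 was the highest of every group and the groups overlapped. Its log2 fold change with FSH was -0.65 (adjusted p = 0.0828), and *Col1a2* was called lower with FSH when FSH replicate 1 or EGFP replicate 2 was left out (adjusted p down to 0.0296). *Col12a1*, a collagen that decorates type I fibers, was 1.57-fold lower with FSH than EGFP (log2 9.09, 9.23 and 9.19 in FSH arrays and 10.06 and 9.60 in EGFP arrays, adjusted p = 0.00556), and its PKA-CQR arrays had 9.32, 9.44 and 9.43 (adjusted p = 0.0628, and 0.00691 without EGFP replicate 2). The type VI chains *Col6a1*, *Col6a2* and *Col6a3*, which form beaded filaments, had log2 fold changes between -0.08 and 0.18 with FSH and none was called.

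The promoter of *Col11a1* is shown for a fibrillar collagen that fell (RefSeq, GRCr8, chr2:204508886-204509185, plus strand, 250 bases before to 50 after the gene's start). Capitals mark Sp1 letters (GGGCGG) and NF-Y letters (CCAAT), each on either strand.
Col11a1 promoter: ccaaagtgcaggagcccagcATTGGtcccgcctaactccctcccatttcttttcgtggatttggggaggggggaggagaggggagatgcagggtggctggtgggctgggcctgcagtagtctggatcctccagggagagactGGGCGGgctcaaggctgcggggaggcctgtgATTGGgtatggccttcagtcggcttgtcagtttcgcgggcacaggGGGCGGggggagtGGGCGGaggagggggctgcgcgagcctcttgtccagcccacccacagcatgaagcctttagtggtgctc

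In the basement membrane group *Nid1* and *Lamb2* fell with FSH and *Col18a1* rose, and the other 5 measured genes were not called. These are shares of 25% and 12.5%, beside 12.1% and 13.4% of all genes. *Nid1*, the bridging protein nidogen, had log2 signals of 7.81, 7.76 and 7.96 in FSH arrays, 9.32, 9.01 and 9.26 in PKA-CQR arrays, and 10.57 and 10.26 in EGFP arrays. The 3 groups were more than 1 log2 unit apart in their means and did not overlap. *Nid1* fell 5.95-fold with FSH (log2 change -2.57 with an SE of 0.13, adjusted p = 3.85e-06) and 2.33-fold with PKA-CQR (adjusted p = 0.000573), and was 2.56-fold lower with FSH than with PKA-CQR (adjusted p = 0.000466). These 3 calls were kept whichever array was left out. *Nid2*, its paralog, had log2 fold changes of -0.09 with FSH (95% interval -0.33 to 0.14) and 0.08 with PKA-CQR (-0.16 to 0.31) at a dim signal.

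*Lamb2*, the beta 2 chain of laminin, had log2 signals of 11.18, 10.67 and 10.66 in FSH arrays, 11.54, 11.32 and 11.11 in PKA-CQR arrays, and 11.86 and 11.39 in EGFP arrays. FSH arrays lay below EGFP arrays, and PKA-CQR arrays overlapped with both. The 1.73-fold fall with FSH (adjusted p = 0.0218) was lost without FSH replicate 2, FSH replicate 3 or EGFP replicate 1 (adjusted p up to 0.172). With the replicate number as a block, *Lamb2* was also lower with FSH than with PKA-CQR (adjusted p = 0.0102, against 0.194 without the block). *Col18a1*, the collagen whose fragment is endostatin, ran the other way, at 8.64, 8.61 and 8.78 in FSH arrays, 8.49, 8.26 and 8.39 in PKA-CQR arrays, and 8.11 and 7.73 in EGFP arrays. It rose 1.69-fold with FSH (log2 change 0.76 with an SE of 0.12, adjusted p = 0.00224). The 1.38-fold rise of *Col18a1* with PKA-CQR (adjusted p = 0.0433) was lost on leaving out any PKA-CQR array, FSH replicate 1, FSH replicate 2 or EGFP replicate 2 (adjusted p up to 0.238).

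*Col4a1* and *Col4a2*, the common chains of type IV collagen, start head to head, and their promoter windows share 176 bases. Their log2 fold changes were 0.06 (95% interval -0.29 to 0.41) and -0.05 (-0.29 to 0.20) with FSH, and -0.17 and -0.14 with PKA-CQR. *Lamb1* and *Lamc1*, the laminin chains found in most tissues, both had -0.02 with FSH. The promoter of *Nid1* (RefSeq, GRCr8, chr17:93069036-93069335, plus strand) is set beside that of *Col4a1* (chr16:84885347-84885646, plus strand) as a basement membrane gene that fell and one that was not called. Capitals mark Sp1 and NF-Y letters in both and, in *Nid1*, TEAD letters (GGAATG) near the left end.
Nid1 promoter: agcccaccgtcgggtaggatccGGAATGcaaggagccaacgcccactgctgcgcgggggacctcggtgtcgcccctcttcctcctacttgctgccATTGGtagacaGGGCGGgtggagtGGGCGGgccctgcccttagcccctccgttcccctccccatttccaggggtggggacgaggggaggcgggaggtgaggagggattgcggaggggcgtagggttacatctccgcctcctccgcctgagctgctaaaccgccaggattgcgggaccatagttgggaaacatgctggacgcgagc
Col4a1 promoter: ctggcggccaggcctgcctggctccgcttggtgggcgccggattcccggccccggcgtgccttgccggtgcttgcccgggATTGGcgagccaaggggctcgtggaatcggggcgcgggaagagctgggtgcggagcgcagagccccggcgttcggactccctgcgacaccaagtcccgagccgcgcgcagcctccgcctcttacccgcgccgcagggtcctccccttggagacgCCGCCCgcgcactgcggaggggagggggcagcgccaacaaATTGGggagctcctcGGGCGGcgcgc

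Other chains of type IV collagen and laminin were called in both directions. These chains come from a list of 61 further structural matrix genes, of which 48 were measured. With FSH 9 (18.8%) fell and 11 (22.9%) rose, beside 12.1% and 13.4% of all genes. With PKA-CQR 3 (6.2%) fell, near the 6.02% of all genes, and 8 (16.7%) rose, beside 6.48%. *Col4a4*, a type IV chain of specialised basement membranes, had log2 signals of 6.81, 6.56 and 6.56 in FSH arrays, 7.51, 7.45 and 7.61 in PKA-CQR arrays, and 8.99 and 8.35 in EGFP arrays. It fell 4.08-fold with FSH (adjusted p = 5.63e-05) and 2.21-fold with PKA-CQR (adjusted p = 0.00318). *Col4a5* and *Col4a6*, named here after their values were seen, also fell with both stimuli, 2.52-fold and 1.72-fold with FSH and 1.6-fold and 1.51-fold with PKA-CQR (that call of *Col4a6* had an adjusted p of 0.0522 without EGFP replicate 1). Of the 5 type IV chains measured, the 3 minor chains were thus lower and the 2 common chains were not called.

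Among the laminin chains *Lamb3* and *Lama4* rose. *Lamb3*, a chain of a laminin that anchors epithelia, had 7.08, 7.36 and 7.40 in FSH arrays, 6.14, 6.14 and 6.37 in PKA-CQR arrays, and 5.52 and 5.58 in EGFP arrays, a rise of at least 3.32-fold with FSH, since EGFP signals were below 6 log2 (adjusted p = 1.69e-05) and at least 1.59-fold with PKA-CQR (adjusted p = 0.00646, and 0.057 without EGFP replicate 1). *Lama4* rose by like amounts with both, 2.12-fold with FSH (adjusted p = 0.000842) and 2.05-fold with PKA-CQR (adjusted p = 0.00252), with a log2 difference between the stimuli of 0.05 (95% interval -0.25 to 0.35). *Lama1*, also named after its values were seen, rose 1.67-fold and 1.45-fold. The other named genes of that list were *Vwa1* and *Col14a1*, which fell 3.29-fold and, with FSH signals below 6 log2, at least 2.84-fold with FSH, and *Vcan*, the proteoglycan versican, which FSH raised 2.02-fold and PKA-CQR 2.24-fold.

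**Figure D2:**
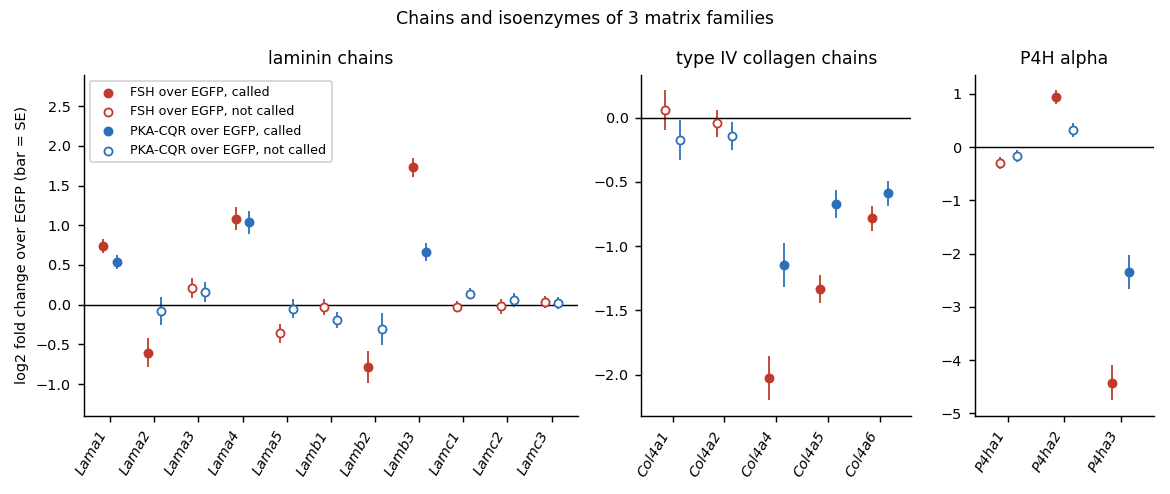
Log2 fold change over EGFP (y axis, bars are SE) of laminin chains, type IV collagen chains and P4H alpha subunits (prolyl 4-hydroxylase), red for FSH and blue for PKA-CQR, filled where the limma adjusted p was below 0.05 (n = 3, 3 and 2 arrays). *Lamb3* and *Lama4* lie above 0 with both stimuli, *Col4a4*, *Col4a5* and *Col4a6* below 0, and *P4ha3* falls furthest.

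Of the 5 small leucine-rich proteoglycans, *Aspn*, *Dcn* and *Bgn* fell with FSH and *Lum* and *Fmod* were not called. The 3 that fell are 60%, beside 12.1% of all genes. *Aspn*, asporin, which binds collagen and TGF-beta, had log2 signals of 5.17, 4.64 and 5.09 in FSH arrays, 8.18, 7.78 and 7.66 in PKA-CQR arrays, and 9.76 and 8.93 in EGFP arrays. FSH arrays lay more than 2 log2 units below every other array. The FSH signals lay below 6 log2 and were not shown to be above background, so folds against them are lower bounds. *Aspn* was at least 20.9-fold lower with FSH than EGFP (measured log2 change -4.38 with an SE of 0.26, adjusted p = 9.13e-06) and at least 7.5-fold lower than with PKA-CQR (adjusted p = 0.000389). The 2.78-fold fall with PKA-CQR had an adjusted p of 0.00691, and of 0.0523 without EGFP replicate 1. *Omd*, the neighbor of *Aspn* in the genome and another leucine-rich proteoglycan, was named after its values were seen and fell 2.31-fold with FSH (adjusted p = 0.00066).

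*Dcn*, decorin, had log2 signals of 8.38, 8.31 and 7.38 in FSH arrays, 9.67, 9.61 and 8.91 in PKA-CQR arrays, and 10.62 and 9.82 in EGFP arrays. Replicate 3 was the lowest of both stimulated groups, and the 3 groups did not overlap. *Dcn* fell 4.6-fold with FSH (log2 change -2.20 with an SE of 0.36, adjusted p = 0.0024), while its log2 fold change with PKA-CQR was -0.82 (95% interval -1.65 to 0.01, adjusted p = 0.208). The direct comparison called *Dcn* 2.6-fold lower with FSH (adjusted p = 0.041), a call lost on leaving out any FSH or PKA-CQR array except PKA-CQR replicate 3 (adjusted p up to 0.16). *Lum*, lumican, lies next to *Dcn* in the genome and had 6.95, 6.40 and 6.41 in FSH arrays, 7.31, 7.18 and 6.34 in PKA-CQR arrays, and 7.51 and 6.75 in EGFP arrays. Its groups overlapped (log2 fold change with FSH -0.54, adjusted p = 0.279).

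*Bgn*, biglycan, had log2 signals of 7.11, 7.20 and 7.28 in FSH arrays, 7.73, 7.50 and 7.57 in PKA-CQR arrays, and 7.96 and 7.66 in EGFP arrays. FSH arrays were below all others, and PKA-CQR arrays overlapped with EGFP arrays. The fall was 1.53-fold with FSH against EGFP (adjusted p = 0.00399), and the 1.32-fold difference from PKA-CQR (adjusted p = 0.048) was lost without any 1 of the 6 FSH and PKA-CQR arrays (adjusted p up to 0.179).

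Microfibrils are the scaffold on which elastin is laid, and their genes went both ways. *Mfap5*, a small protein bound to fibrillin microfibrils, had log2 signals of 8.02, 7.66 and 8.25 in FSH arrays, 10.24, 10.05 and 10.03 in PKA-CQR arrays, and 11.39 and 11.16 in EGFP arrays. The spread within each group was smaller than the steps between groups. *Mfap5* fell 9.83-fold with FSH (log2 change -3.30 with an SE of 0.16, adjusted p = 3.74e-06) and 2.25-fold with PKA-CQR (adjusted p = 0.00215), and was 4.37-fold lower with FSH than with PKA-CQR (adjusted p = 0.000195), with each call kept whichever array was left out.

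Both fibrillins, the main microfibril proteins, were measured. *Fbn2*, the fibrillin of developing tissue, had 8.57, 8.13 and 8.30 in FSH arrays, 7.88, 7.77 and 7.98 in PKA-CQR arrays, and 7.50 and 7.24 in EGFP arrays. It rose 1.95-fold with FSH (log2 change 0.96 with an SE of 0.14, adjusted p = 0.00112), the largest rise of the 43 genes. The 1.42-fold rise with PKA-CQR (adjusted p = 0.0465) was lost in 6 of the 8 leave-outs (adjusted p up to 0.243). With the replicate number as a block *Fbn2* was also higher with FSH than with PKA-CQR (adjusted p = 0.0208, against 0.0723 without the block).

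*Fbn1*, the fibrillin of adult tissue, had 10.70, 10.64 and 10.49 in FSH arrays, 10.96, 10.95 and 10.95 in PKA-CQR arrays, and 10.79 and 10.58 in EGFP arrays. The PKA-CQR arrays were the highest, and FSH arrays overlapped with EGFP arrays. *Fbn1* was 1.27-fold lower with FSH than with PKA-CQR (adjusted p = 0.0447, lost without any 1 of the 6 arrays compared, up to 0.149), and neither stimulus was called against EGFP. *Fbln1*, fibulin-1, had 8.91, 8.68 and 8.63 in FSH arrays, 9.07, 9.05 and 8.94 in PKA-CQR arrays, and 9.23 and 9.03 in EGFP arrays. It fell 1.31-fold with FSH (adjusted p = 0.0264, and up to 0.185 without FSH replicate 2, FSH replicate 3 or EGFP replicate 1). *Eln*, elastin itself, and *Fbln2* had log2 fold changes of 0.17 and 0.29 with FSH and were not called.

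The promoters of *Mfap5* (RefSeq, GRCr8, chr4:157399669-157399968, plus strand) and *Fbn2* (chr18:53901943-53902242, minus strand) are shown as microfibril genes that moved in opposite directions. Capitals mark NF-Y letters in *Mfap5*, and in *Fbn2* a pair of CRE cores (TGACG), which begin 164 and 110 bases before the start, and TEAD letters on the reverse strand.
Mfap5 promoter: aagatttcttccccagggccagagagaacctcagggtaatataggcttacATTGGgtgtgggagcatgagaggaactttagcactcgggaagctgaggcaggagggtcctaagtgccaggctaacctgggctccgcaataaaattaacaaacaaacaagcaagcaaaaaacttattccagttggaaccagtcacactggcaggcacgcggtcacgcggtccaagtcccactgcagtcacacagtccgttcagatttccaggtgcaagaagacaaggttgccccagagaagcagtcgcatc
Fbn2 promoter: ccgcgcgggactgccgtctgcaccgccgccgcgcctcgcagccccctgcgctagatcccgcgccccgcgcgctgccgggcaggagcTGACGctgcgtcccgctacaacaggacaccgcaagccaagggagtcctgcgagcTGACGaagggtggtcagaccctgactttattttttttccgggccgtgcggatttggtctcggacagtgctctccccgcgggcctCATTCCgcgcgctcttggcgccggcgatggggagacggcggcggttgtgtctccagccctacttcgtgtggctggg

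Adhesive and matricellular proteins bind matrix and cell surface receptors, and 4 of the 6 measured (66.7%) fell with FSH, beside 12.1% of all genes. *Fn1*, fibronectin, had log2 signals of 9.65, 9.54 and 9.01 in FSH arrays, 11.80, 11.49 and 11.04 in PKA-CQR arrays, and 13.16 and 12.46 in EGFP arrays. Its 3 groups did not overlap, and replicate 3 was the lowest in both stimulated groups. The log2 fold change was -3.41 with FSH (95% interval -4.05 to -2.77) and -1.37 with PKA-CQR (-2.01 to -0.72), and FSH was 4.11-fold below PKA-CQR (adjusted p = 0.00222). The PKA-CQR call of *Fn1* was lost without EGFP replicate 1 (adjusted p = 0.125).

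*Spp1*, osteopontin, had 11.30, 11.43 and 10.98 in FSH arrays, 12.82, 12.65 and 12.16 in PKA-CQR arrays, and 14.06 and 13.37 in EGFP arrays. The order of the groups was that of *Fn1*, again without overlap. *Spp1* fell 5.56-fold with FSH (log2 change -2.48 with an SE of 0.25, adjusted p = 0.000144) and 2.25-fold with PKA-CQR (adjusted p = 0.0163, and 0.133 without EGFP replicate 1), and FSH was 2.48-fold below PKA-CQR (adjusted p = 0.00967).

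*Tnc*, tenascin-C, an anti-adhesive protein of tissue remodeling, had 4.85, 4.81 and 5.13 in FSH arrays, 6.0, 5.84 and 5.59 in PKA-CQR arrays, and 7.59 and 6.37 in EGFP arrays. The EGFP arrays were 1.22 log2 units apart, the widest gap between them among the 43 genes. *Tnc* fell at least 4.13-fold with FSH (adjusted p = 0.00131), a lower bound since its FSH signals were below 6 log2 and not shown to be above background. Its measured log2 fold change with FSH was -1.44 without EGFP replicate 1 and -2.66 without EGFP replicate 2. The 2.25-fold fall of *Tnc* with PKA-CQR (adjusted p = 0.0382) was lost in 6 of the 8 leave-outs (adjusted p up to 0.139), with log2 fold changes of -0.56 without EGFP replicate 1 and -1.78 without EGFP replicate 2. FSH over PKA-CQR was not called (adjusted p = 0.108), and was called without either EGFP array (adjusted p = 0.00754 each). *Sparc*, a collagen-binding glycoprotein, fell 1.6-fold with FSH (adjusted p = 0.0175, and 0.144 without EGFP replicate 1). *Postn*, periostin, was dim, between 3.92 and 4.30 log2 on every array, and *Thbs2* had a log2 fold change of 0.16 with FSH. Neither was called.

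Collagen-modifying proteins split between a steep fall of *Lox* and small changes elsewhere. *Lox*, the lysyl oxidase that starts collagen and elastin cross-links, had log2 signals of 10.56, 10.47 and 10.10 in FSH arrays, 13.34, 13.01 and 12.96 in PKA-CQR arrays, and 14.01 and 13.95 in EGFP arrays. PKA-CQR arrays were close to EGFP arrays and far above FSH arrays. *Lox* had a log2 fold change of -3.61 with FSH (SE 0.15, adjusted p = 2.5e-06) and -0.88 with PKA-CQR (SE 0.15, adjusted p = 0.00668, and 0.0585 without EGFP replicate 1). It was 6.63-fold lower with FSH than with PKA-CQR (adjusted p = 4.05e-05), and this call was kept whichever array was left out.

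*Loxl1*, a paralog needed for elastic fiber upkeep in mice, ran the other way. It had 7.52, 7.50 and 7.39 in FSH arrays, 7.14, 7.06 and 7.11 in PKA-CQR arrays, and 6.96 and 6.81 in EGFP arrays, with no overlap. *Loxl1* rose 1.5-fold with FSH (log2 change 0.58 with an SE of 0.08, adjusted p = 0.000815). It was the 1 matrix gene called higher with FSH than with PKA-CQR (1.29-fold, adjusted p = 0.0187), a call lost in 5 of the 8 leave-outs (adjusted p up to 0.081). With PKA-CQR against EGFP its log2 fold change was 0.22 (95% interval 0.04 to 0.40, adjusted p = 0.122).

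*Loxl2*, a dim paralog, had log2 signals of 5.33, 5.34 and 5.14 in FSH arrays, 5.46, 5.26 and 5.47 in PKA-CQR arrays, and 5.72 and 5.54 in EGFP arrays. It fell 1.29-fold with FSH (adjusted p = 0.0349, and up to 0.224 on leaving out FSH replicate 2, FSH replicate 3, PKA-CQR replicate 1 or EGFP replicate 1). *Serpinh1*, the collagen chaperone HSP47, was bright and fell 1.19-fold (adjusted p = 0.0298), a call lost in 5 of the 8 leave-outs (adjusted p up to 0.121). The hydroxylases *Plod1*, *Plod2* and *P4ha1*, which modify collagen lysines and prolines, had log2 fold changes of 0.33, -0.28 and -0.30 with FSH (adjusted p = 0.0882, 0.0635 and 0.0802). Each was called with FSH when 1 array was left out, *Plod1* without EGFP replicate 1 (adjusted p = 0.0109, and 0.0358 with PKA-CQR), *Plod2* without FSH replicate 1 (adjusted p = 0.0478) and *P4ha1* without EGFP replicate 2 (adjusted p = 0.0274).

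**Figure D3:**
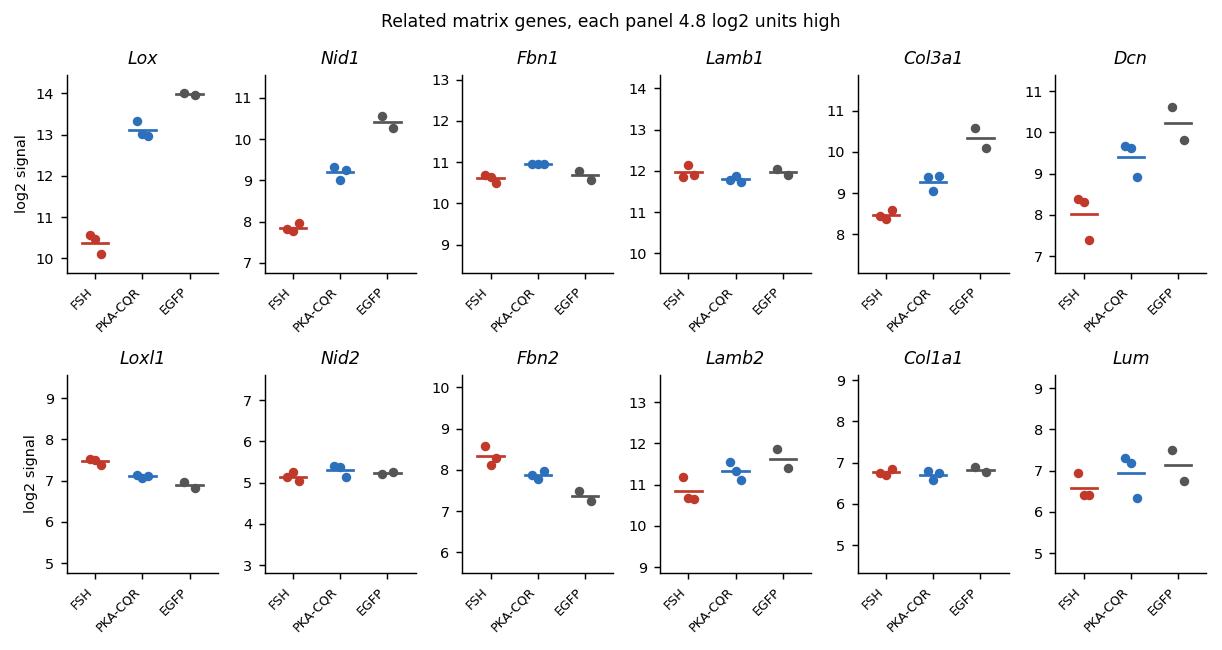
Log2 signal on each array (points) and group mean (line) of 6 pairs of related matrix genes, FSH in red, PKA-CQR in blue and EGFP in grey, with every panel 4.8 log2 units high. *Lox*, *Nid1* and *Col3a1* step down in PKA-CQR and further in FSH, *Dcn* was called lower in FSH but not in PKA-CQR against EGFP, and *Nid2*, *Col1a1* and *Lamb1* gave no call. With FSH *Loxl1* and *Fbn2* step up.

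A further 29 genes of collagen folding, processing and cross-linking were listed, and 16 were measured. With FSH 2 (12.5%) fell and 3 (18.8%) rose, beside 12.1% and 13.4% of all genes. With PKA-CQR 1 (6.2%) fell and 4 (25%) rose, beside 6.02% and 6.48% of all genes. The shares that fell were near those of all genes with either stimulus. *P4ha3*, an alpha subunit of prolyl 4-hydroxylase, had 5.50, 6.23 and 6.75 in FSH arrays, 7.96, 8.12 and 8.65 in PKA-CQR arrays, and 10.57 and 10.61 in EGFP arrays. The FSH arrays spread over more than 1 log2 unit, and no groups overlapped. *P4ha3* fell 21.5-fold with FSH (log2 change -4.43 with an SE of 0.33, adjusted p = 2.75e-05) and 5.08-fold with PKA-CQR (adjusted p = 0.00229). *P4ha2*, another alpha subunit, rose 1.91-fold with FSH (adjusted p = 0.00109).

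The collagen chaperone *Fkbp10* rose 1.67-fold with FSH (adjusted p = 0.000106) and *Lepre1*, a prolyl 3-hydroxylase, 1.37-fold (adjusted p = 0.00135). *Loxl3*, the other called fall, was 1.26-fold lower at an adjusted p just under the threshold, lost in 6 of the 8 leave-outs (adjusted p up to 0.334). *Tgm2*, transglutaminase 2, another cross-linking enzyme, was named after its values were seen. It had 7.64, 7.57 and 7.66 in FSH arrays, 8.07, 8.29 and 8.21 in PKA-CQR arrays, and 7.46 and 7.53 in EGFP arrays, and so was raised in PKA-CQR arrays (1.62-fold over EGFP, adjusted p = 0.00118) and lower with FSH than with PKA-CQR (1.48-fold, adjusted p = 0.00326).

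The 3 comparisons share arrays, so their calls are not independent of each other. *Col3a1*, *Col5a2*, *Col11a1*, *Nid1*, *Aspn*, *Mfap5*, *Fn1*, *Spp1* and *Lox* were called lower in all 3. Another 21 genes were called in no comparison, and 20 of these were under 1.5-fold in all 3, the exception being *Col1a2*. The shares of all genes with these joint patterns were not counted, so the joint counts have no baseline.

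**Figure D4:**
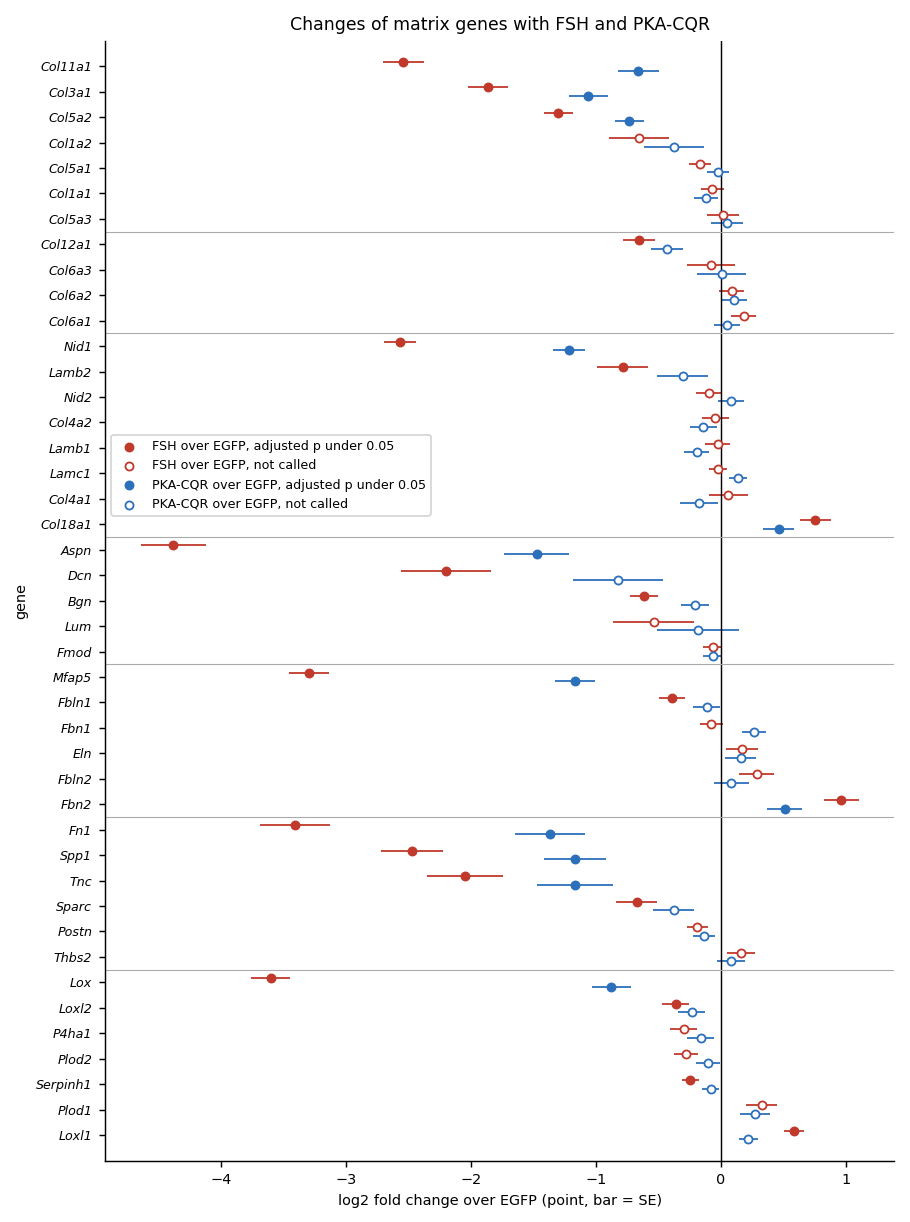
Log2 fold change over EGFP (x axis, bars are SE) of the 43 matrix genes by role, red for FSH and blue for PKA-CQR, filled where the limma adjusted p was below 0.05 (n = 3, 3 and 2 arrays). The FSH points of *Aspn*, *Lox*, *Fn1* and *Mfap5* lie below -3, and 20 of the 21 genes without a call stay within 1.5-fold in every comparison.

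Promoters from RefSeq were at hand for 29 of the 43 genes, and 6 short motifs were searched on both strands of each 300-base window. They covered 9 of the 18 genes that fell with FSH, the 3 that rose and 17 of the 22 not called. Among the genes that fell, *Lox*, *Fn1*, *Dcn* and *Col3a1* had none. The motif and GC values therefore do not describe all genes that fell. Sp1 letters (GGGCGG) were in 16 of the 29, against 33.1% of all 33469 promoters, and NF-Y letters (CCAAT) in 9, against 37.5%. The CRE core (TGACG), part of the site bound by CREB, was in 1 of the 29, *Fbn2*, against 21.2% of all promoters. TEAD letters (GGAATG) were in 5 (*Fbn2*, *Lamc1*, *Loxl1*, *Nid1* and *Sparc*) against 14.2%. TATA box letters (TATAAA) were in 4 against 14.2%, and E box letters (CACGTG) in 0 against 6.4%. The TATA box letters began 170, 204 and 208 bases before the start in *Col1a2*, *Spp1* and *Tnc*, and 44 before it in *Postn*. Matches of different motifs overlapped at 1 place. The 9 promoters of genes that fell with FSH had a median GC content of 52.3%, the 17 of genes not called 64.7% and all promoters 51.7%.

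Markers of cell types were read on the same arrays. Of 13 granulosa markers 9 (69.2%) rose with FSH, beside 13.4% of all genes, and none fell. *Amh*, *Foxl2*, *Esr2* and *Gja1* were not called with FSH (log2 fold changes of 0.30, -0.03, 0.23 and 0.09). With PKA-CQR 8 granulosa markers (61.5%) rose, beside 6.48% of all genes, and none fell. The mean log2 signal of the 13 was 11.02 to 11.30 in FSH arrays, 11.25 to 11.31 in PKA-CQR arrays and 9.91 to 10.05 in EGFP arrays. The paper lists several that rose, among them *Cyp19a1*, *Inha* and *Gata4*, as genes raised by FSH, so this mean does not measure cell number. Of 12 markers of smooth muscle and pericytes 6 fell with FSH (*Tagln*, *Mcam*, *Acta2*, *Cspg4*, *Cnn1* and *Lmod1*) and 1 rose (*Abcc9*), shares of 50% and 8.3% beside 12.1% and 13.4% of all genes. *Myh11*, *Des*, *Rgs5*, *Notch3* and *Myocd* were not called with FSH. With PKA-CQR 5 of the 12 (41.7%) fell and 1 (8.3%) rose, beside 6.02% and 6.48% of all genes. The mean log2 signal of the 12 was 6.99 to 7.09 in FSH arrays, 7.31 to 7.42 in PKA-CQR arrays and 7.60 to 7.91 in EGFP arrays. Of 13 theca and stroma markers 2 fell with FSH (*Mgp* and *Pdgfra*) and 1 rose (*Cyp17a1*), shares of 15.4% and 7.7% that were near those of all genes, with mean log2 signals of 6.45 to 6.59 in FSH arrays, 6.54 to 6.68 in PKA-CQR arrays and 6.52 to 6.57 in EGFP arrays. Of 10 endothelial markers 1 (10%) fell with FSH (*Kdr*), near the 12.1% of all genes. That list averaged 5.78 to 5.97, 5.79 to 5.96 and 5.79 to 5.94 in FSH, PKA-CQR and EGFP arrays. Of 15 markers of macrophages and leukocytes 3 rose with FSH (*Cd74* 2.19-fold, *Cd68* 1.61-fold and *Tyrobp* 1.29-fold) and 1 fell (*Cd14*). These are shares of 20% and 6.7%, beside 13.4% and 12.1% of all genes. The leukocyte list averaged 6.54 to 6.66 in FSH arrays, 6.31 to 6.53 in PKA-CQR arrays and 6.37 to 6.40 in EGFP arrays. Of 6 surface epithelium markers *Upk1b* rose 3.93-fold and *Wt1* fell 1.44-fold with FSH (16.7% in each direction, near the shares of all genes). Their list means were 7.20 to 7.44 in FSH arrays, 7.05 to 7.17 in PKA-CQR arrays and 6.96 to 6.99 in EGFP arrays. Of 6 oocyte markers *Zp2* fell 1.53-fold with FSH (16.7%, near the share of all genes). The oocyte list means were 5.66 to 6.21 in FSH arrays, 5.86 to 6.69 in PKA-CQR arrays and 5.74 to 6.18 in EGFP arrays. With PKA-CQR 1 of the 13 theca and stroma markers (7.7%) rose. Of the 6 surface epithelium markers 1 (16.7%) rose and 1 (16.7%) fell with PKA-CQR. No endothelial, leukocyte or oocyte marker was called with PKA-CQR. The part of these cell types in the matrix results was not tested.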

How the data were processed

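RNA of 8 GC cultures was measured on Affymetrix Rat230_2 arrays. The authors deposited log2 signals normalized by RMA, per the labels, one value per probe set, while their methods name MAS5.0 and a Student t test. The genome build and annotation were not given in the sources used here. The table holds 31099 probe sets, of which 13915 carry a gene symbol, and each symbol has 1 probe set. No filter on low signal was applied, and 8 of the 43 genes averaged below 6 log2. No detection calls were used. The number of arrays limits the precision.

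Comparisons used limma 3.58.1 under R 4.3.3 (lmFit and eBayes on all 8 arrays, Benjamini-Hochberg adjustment over the 13915 genes, calls at an adjusted p below 0.05), after the fit was tested on simulated data. The main fit held no pairing, and the replicate number as a block was run as an alternative. Same-numbered FSH and PKA-CQR arrays deviated together (r of 0.23, 0.44 and 0.62 over genes). Between unlike numbers r was 0.32 for FSH replicate 1 with PKA-CQR replicate 2 and negative otherwise. Deviations were taken from the group mean, so a positive r with 1 array of a group forces a negative one with another. The 2 EGFP arrays thus deviated by equal and opposite amounts, and their r values cannot place either array. EGFP replicate 1 had r of 0.42 with FSH replicate 1 and 0.13 with PKA-CQR replicate 1. EGFP replicate 2 had r of -0.27 with FSH replicate 2 and -0.32 with PKA-CQR replicate 2. Promoters came from RefSeq (GRCr8), used for letters only.

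The genes, lists and motifs were chosen with earlier results of these data known. Every array's value is printed for the 3 genes of each role with the largest change with FSH among those called, and for any other called in the direct comparison. From each further list the 3 largest called rises and falls with FSH are named. Alternatives were another scaling, a filter at 6 log2, all probe sets, each array left out, replicate blocks, another variance model, the methods' t-test, the second deposited table and, chosen after seeing the data, a beta-actin 3' to 5' covariate and a block with EGFP replicate 2 among the third cultures.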

Additional observations from a re-analysis of the deposited data

Results flagged for a closer look

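The array annotation assigns to *Hspg2*, the basement membrane proteoglycan perlecan, a probe set that the deposited table names *LOC313641*. It is therefore not among the 43 genes counted above, and its signal lay outside the comparisons reported there. *LOC313641* had log2 signals of 7.62, 7.77 and 7.84 in FSH arrays, 7.18, 7.25 and 7.36 in PKA-CQR arrays, and 7.22 and 7.25 in EGFP arrays. FSH arrays were above all others, and PKA-CQR arrays overlapped with EGFP arrays. The log2 fold change was 0.51 with FSH (limma adjusted p = 0.00341) and 0.03 with PKA-CQR (adjusted p = 0.903), and FSH was above PKA-CQR by 0.48 log2 (adjusted p = 0.00915).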

How the results depend on the processing

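No matrix gene changed direction in a comparison where it was called, under any of the alternatives run. With each array left out, the count of matrix genes called ranged from 17 to 23 with FSH, 6 to 11 with PKA-CQR and 7 to 14 for FSH over PKA-CQR. The methods' t-test after Benjamini-Hochberg adjustment called 7, 0 and 5, and at its unadjusted threshold of 0.001 called 3, 0 and 6. At these group sizes it uses the spread of single genes, and limma called 21, 12 and 13. The other settings gave counts within 1.5 times of these, among them 21, 12 and 15 with the replicate number as a fixed block, 23, 13 and 14 with it as a random block, 26, 14 and 16 with EGFP replicate 2 among the third cultures, 21, 16 and 15 with the beta-actin covariate, 21, 10 and 10 with all probe sets, and 23, 13 and 13 after a second quantile normalization. The paper matched controls to its culture groups and used no control of its own for the third group. The labels do not say whether replicate numbers are those groups. With the fixed block *Serpinh1* lost its call with FSH (adjusted p = 0.0547) and *Col1a2* gained one (adjusted p = 0.00393). With all probe sets the PKA-CQR calls of *Col18a1* and *Fbn2* were lost (adjusted p = 0.0526 and 0.0563). The cause of these changes was not tested. Shares of all genes called were not counted under the alternatives, so the counts under them have no baseline. The difference between the beta-actin 3' and 5' probe sets was 1.30, 1.45 and 1.88 log2 in FSH arrays, 1.45, 1.34 and 1.66 in PKA-CQR arrays, and 1.02 and 1.53 in EGFP arrays. Tests of further probe sets of a gene were not run, since no counted gene had a second one in the annotation used. Apart from controls, 17128 probe sets carried no symbol in the table. Whether any of them measures a counted gene was not tested beyond that annotation.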

Other observations

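Of 26 listed integrin subunits, syndecans and other matrix receptors 22 were measured, and with FSH 6 (27.3%) fell and 4 (18.2%) rose, beside 12.1% and 13.4% of all genes. With PKA-CQR 4 (18.2%) fell and 1 (4.5%) rose, beside 6.02% and 6.48%, so the rises were near the shares of all genes. *Itgb3*, a subunit of receptors for fibronectin and osteopontin, had log2 signals of 5.97, 6.09 and 6.13 in FSH arrays, 6.49, 6.46 and 6.50 in PKA-CQR arrays, and 7.44 and 7.20 in EGFP arrays. It fell 2.38-fold with FSH (limma adjusted p = 2.57e-05) and 1.78-fold with PKA-CQR (adjusted p = 0.000734). *Itga6*, a laminin receptor subunit, had 11.47, 11.55 and 11.48 in FSH arrays, 12.20, 12.08 and 12.10 in PKA-CQR arrays, and 12.64 and 12.52 in EGFP arrays. It fell 2.11-fold with FSH (adjusted p = 2.24e-05) and 1.37-fold with PKA-CQR (adjusted p = 0.00574, and 0.0578 without EGFP replicate 1). *Sdc2*, a heparan sulfate proteoglycan of the cell surface, fell 1.92-fold with FSH (adjusted p = 0.00123).

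*Itga1*, a collagen receptor subunit, rose 2.12-fold with FSH (adjusted p = 0.00358). *Itga9* had 5.99, 6.13 and 6.37 in FSH arrays, 5.46, 5.35 and 5.35 in PKA-CQR arrays, and 5.29 and 5.24 in EGFP arrays. With PKA-CQR and EGFP signals below 6 log2, it rose at least 1.86-fold with FSH (adjusted p = 0.000431) and was at least 1.71-fold higher with FSH than with PKA-CQR (adjusted p = 0.00238), where PKA-CQR arrays had a log2 fold change of 0.12 over EGFP (adjusted p = 0.596). *Itga8* rose 1.79-fold with FSH (adjusted p = 0.00469), with a log2 fold change of 0.08 for PKA-CQR over EGFP (adjusted p = 0.835). FSH over PKA-CQR was called for *Itga8* (adjusted p = 0.0152) but not without FSH replicate 2, PKA-CQR replicate 1 or PKA-CQR replicate 3 (adjusted p up to 0.0749).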
